A study of Mus musculus with 6 samples.

Results

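miR-143 and miR-145a are a pair of microRNAs cut from neighbouring hairpins of 1 locus, and each hairpin can release a 5p and a 3p arm. The 4 arms were taken by their exact names (mmu-miR-143-3p, mmu-miR-143-5p, mmu-miR-145a-5p and mmu-miR-145a-3p) from a table of small RNA tag counts, as 4 of its 1573 known mouse miRNA rows and 61628 rows in all. The cells were primary peritubular myoid cells, flat contractile cells that ring the testis tubules, taken from C57BL/6J mice. In the ET1 group they were treated with 50 nM ET1 (endothelin-1), a peptide that makes smooth muscle contract, for 5 min at 37 °C (n = 3 libraries). The untreated group received no ET1 (n = 3 libraries), and both groups were cultured in DMEM/F12 with 10% fetal bovine serum. Whether each library stands for its own culture or animal is not stated in the labels. The p-values therefore rest on the spread among these 6 libraries, part of which may be technical.

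A miRNA guides an Argonaute protein to messenger RNAs, which are then translated less or degraded. Of the arms of a hairpin, the one that is mostly kept is called the guide and the other, mostly degraded, the passenger. The miR-143 and miR-145 pair is driven by serum response factor and myocardin, and it is known for keeping vascular smooth muscle in its contractile state. miR-143-3p and miR-145a-5p are the guides, and miR-143-5p and miR-145a-3p the passengers.

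In GRCm38 the hairpin Mir143 lies on the minus strand of chromosome 18 at 61649196 to 61649258, and Mir145a on the same strand at 61647825 to 61647894. Between them lie 1301 bases. Both lie inside the RefSeq span of Carmn (61645878 to 61665538), a long non-coding RNA gene of cardiac and smooth muscle cells that is also called Mir143hg. In GENCODE M21 the Carmn gene ends 366 bases before Mir143 in the direction of transcription, so this annotation places both hairpins outside it. Whether the hairpins fall in an exon or an intron of the RefSeq transcript was not examined.

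Libraries held 18127265 to 20895432 tags. Known miRNA tags were 22.6% to 25.5% of the ET1 libraries and 30.1% to 45.6% of the untreated libraries, and rRNA tags were 7.12% to 11.02% of the ET1 libraries and 3.22% to 5.63% of the untreated libraries. Levels are in CPM, tags per 1000000 known miRNA tags of the library. Where TMM scaling is named, each library was also divided by a factor estimated over all tested known miRNAs. TMM factors were 1.08 to 1.18 in ET1 and 0.82 to 0.96 in untreated libraries. A tag is a whole small RNA, so no correction for length applies, and how evenly the library protocol captured different sequences was not measured.

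The guide miR-143-3p was among the abundant miRNAs of these cells, at ranks 15 to 21 of the known miRNAs in ET1 libraries and 9 to 14 in untreated libraries. It stood at 13217, 11293 and 15850.2 CPM in the ET1 libraries, against 21999.8, 20077 and 16945 CPM in the untreated libraries. All 3 ET1 libraries were below all 3 untreated libraries, but the gap between ET1 library 3 and untreated library 3 was narrow. The ET1 mean was 13453 ± 2288 CPM and the untreated mean 19674 ± 2551 CPM (SD, n = 3 each). The two-sided exact permutation p was 0.1, the smallest that 3 against 3 allows, and 0.15 after adjustment over 9 quantities.

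After TMM scaling miR-143-3p had 11493, 10459 and 13428 CPM in ET1 libraries and 25175, 24603 and 17747 CPM in untreated libraries, which made it 1.91-fold lower in ET1. This did not pass the test over all known miRNAs (log2 fold change −0.93, SE 0.30; edgeR quasi-likelihood adjusted p = 0.10). It passed without untreated library 3 (−1.06; edgeR adjusted p = 0.031), the untreated library nearest to the ET1 libraries and the one with the lowest share of known miRNA tags in its group. That fit called 25 of 631 known miRNAs, against 11 of 616 with all libraries. Its median log2 fold change over all tested miRNAs was 0.18.

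**Figure D1:**
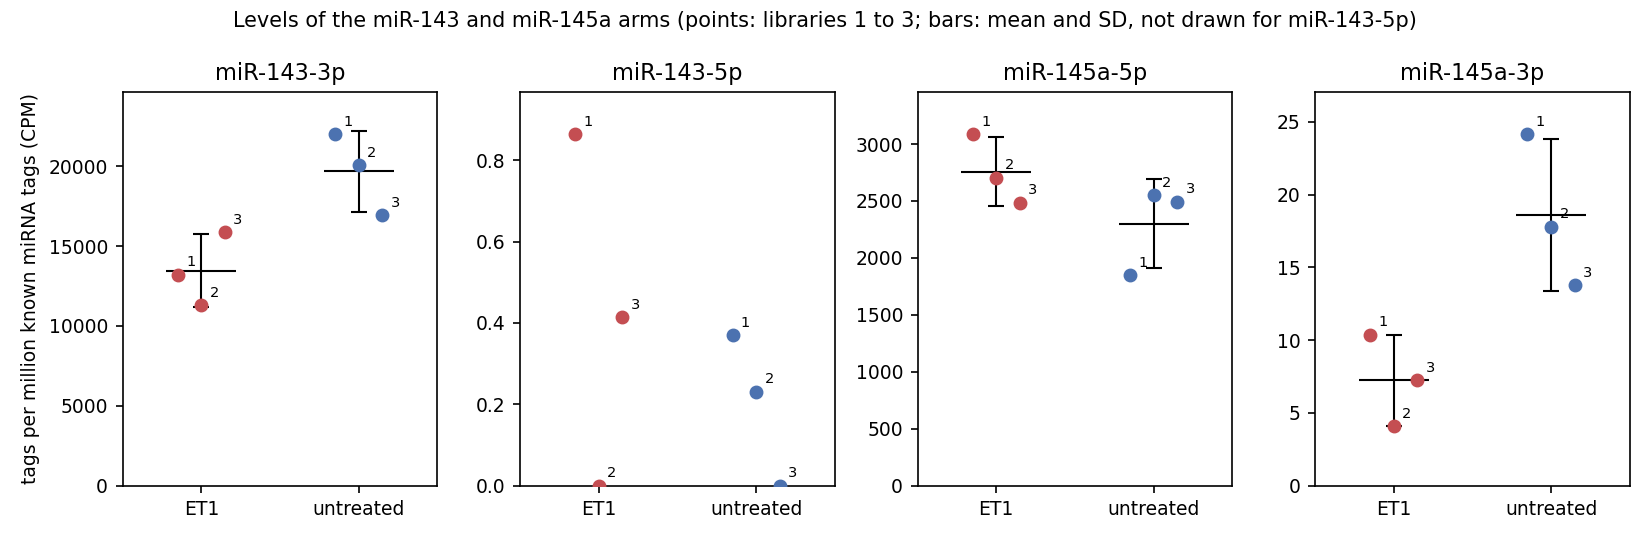
Level of each arm in CPM of known miRNA tags (y axis, linear from 0) in 3 ET1 and 3 untreated libraries (numbered points), with mean and SD except for miR-143-5p. The ET1 libraries lie below the untreated libraries for miR-143-3p and miR-145a-3p, and the groups overlap for miR-145a-5p and miR-143-5p.

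The other guide, miR-145a-5p, ranked 41 to 45 in ET1 libraries and 43 to 49 in untreated libraries. It stood at 3086, 2705 and 2485 CPM in the ET1 libraries, against 1849.6, 2553 and 2495 CPM in the untreated libraries. The groups overlapped, with untreated library 1 the lowest of the 6 and ET1 library 1 the highest. The ET1 mean was 2759 ± 304 CPM and the untreated mean 2299 ± 390.4 CPM (SD, n = 3 each), with an exact permutation p of 0.3 (0.3375 after adjustment). The sign of this difference followed the scaling. After TMM scaling the ET1 mean was 2431 ± 296 CPM and the untreated mean 2619 ± 506 CPM, a log2 fold change of −0.11 (SE 0.32; edgeR adjusted p = 0.88). With the library totals of known miRNA tags alone the log2 fold change was 0.26, in a fit where the median of all tested miRNAs was at 0.37.

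The passenger miR-145a-3p was rare, at ranks 402 to 503 in ET1 libraries and 274 to 342 in untreated libraries, and it was the arm with the largest fold difference of the 3 that could be tested. It was counted 48, 18 and 35 times in the ET1 libraries, against 196, 154 and 86 times in the untreated libraries. These are 10.4, 4.11 and 7.25 CPM in ET1 and 24.2, 17.8 and 13.8 CPM in untreated libraries. The groups did not overlap, and again untreated library 3 was the nearest to ET1. The ET1 mean was 7.24 ± 3.13 CPM and the untreated mean 18.6 ± 5.23 CPM (SD, n = 3 each), with an exact permutation p of 0.1 (0.15 after adjustment).

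After TMM scaling miR-145a-3p was 3.36-fold lower in ET1 and lay just outside the threshold (log2 fold change −1.75, SE 0.49; edgeR adjusted p = 0.079). It passed in 4 of 15 alternatives, among them DESeq2 (−1.77; DESeq2 adjusted p = 0.026), no filter on low counts (−1.83; edgeR adjusted p = 0.030) and the fit without ET1 library 1 (−2.12; edgeR adjusted p = 0.0497). In this order, these fits called 39 of 616, 37 of 1368 and 30 of 677 known miRNAs. The edgeR fit with TMM scaling, the default filter and all libraries called 11 of 616. Over the 15 alternatives the adjusted p of miR-145a-3p ran from 0.026 to 0.86.

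The passenger miR-143-5p was at the limit of detection. It was counted 4, 0 and 2 times in the ET1 libraries and 3, 2 and 0 times in the untreated libraries, which is at most 0.864 CPM. No fold change is given for it, and it did not pass the filter on low counts. A count of 0 allows up to 0.685 CPM in ET1 library 2 and up to 0.481 CPM in untreated library 3 (3 tags), for counting error only.

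Read together, 0 of the 3 tested arms passed in edgeR, where 0.487% of the 616 known miRNAs tested passed as lower in ET1 and 1.3% as higher, 1.79% in all. At an unadjusted p under 0.05 there were 2 arms in edgeR, 2 in DESeq2 and 2 in limma-voom, and of all 616 miRNAs 18.3%, 18.5% and 20.1% were under it in these tools. After adjustment 1 arm passed in DESeq2, where 6.33% of the 616 did, and 0 in limma-voom, where 2.27% did. In 2 of the 3 arms all ET1 libraries were below all untreated libraries, as they were in 5.03% of the 616 miRNAs by CPM and in 11% after TMM scaling. Of the 616, 9 had a log2 fold change lower than miR-145a-3p, 69 one lower than miR-143-3p and 276 one lower than miR-145a-5p. Summed over the 4 arms, ET1 libraries had 16219.5 ± 2172 CPM and untreated libraries 21992 ± 2282 CPM (SD, n = 3 each), again at an exact permutation p of 0.1 (0.15 after adjustment).

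The log2 fold changes depended on the scaling. With library totals alone, where the median of all tested miRNAs was 0.37, miR-143-3p was at −0.55 and miR-145a-3p at −1.36. When all small RNA rows were fitted together, where that median was −0.46, miR-143-3p was at −1.46, miR-145a-5p at −0.61 and miR-145a-3p at −2.30. Relative to the median of its own fit, miR-143-3p was at −0.92 and −0.99 in these fits and at −0.94 with TMM scaling. Likewise miR-145a-5p was at −0.11 and −0.14 and at −0.11, and miR-145a-3p at −1.73 and −1.83 and at −1.75. With the share of known miRNA tags as a covariate, the fits gave −0.46 for miR-143-3p, 0.096 for miR-145a-5p and −0.98 for miR-145a-3p (edgeR adjusted p = 0.86, 0.998 and 0.86). That share was 22.6% to 25.5% in ET1 and 30.1% to 45.6% in untreated libraries, without overlap. Share and group can therefore hardly be told apart in these fits. The SE of miR-145a-3p was 0.79 with the covariate and 0.49 without it.

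**Figure D2:**
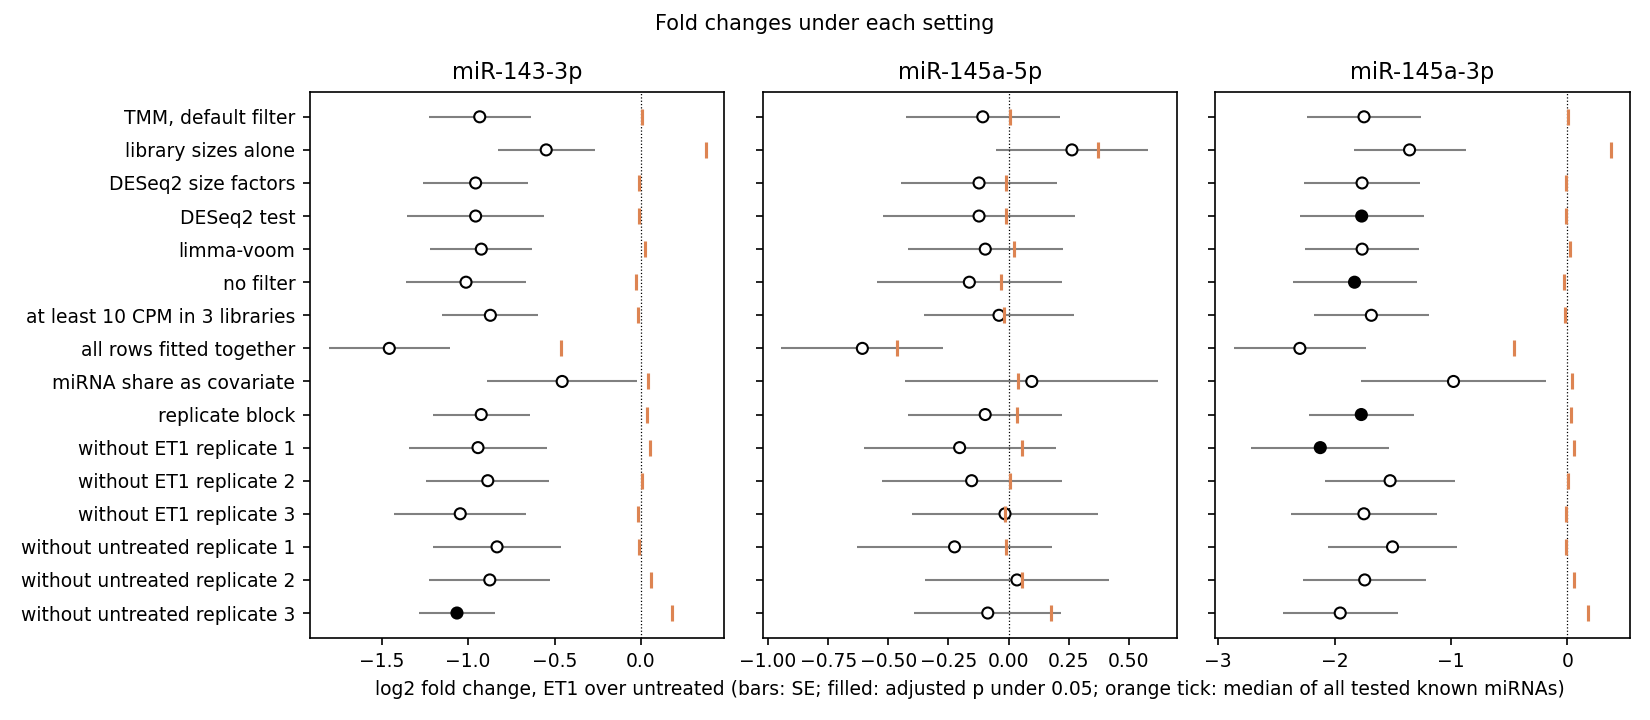
Log2 fold change of ET1 over untreated (x axis; bars are SE, filled points have an adjusted p under 0.05, orange ticks mark the median of all tested known miRNAs) for 3 arms under 16 settings. miR-143-3p and miR-145a-3p lie below the median tick in each setting, and miR-145a-5p lies close to it.

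Ratios within a library need no scaling between libraries. For each tag of miR-145a-5p the ET1 libraries had fewer tags of miR-143-3p, with 4.28, 4.18 and 6.38 miR-143-3p tags per miR-145a-5p tag in ET1 libraries, against 11.9, 7.86 and 6.79 in untreated libraries. The highest ET1 library was just below the lowest untreated library. On the log2 scale this is 2.28 ± 0.34 in ET1 and 3.10 ± 0.42 in untreated cells, a difference of −0.83 (SD, n = 3 each) at an exact permutation p of 0.1 (0.15 after adjustment). It was −0.59 to −1.02 with 1 library left out, and its direction held in each of these 6 cases.

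The ratio of the miR-145a arms was higher in each ET1 library than in any untreated library. There were 298, 658 and 343 tags of miR-145a-5p per tag of miR-145a-3p in ET1 libraries, against 76.6, 143 and 181 in untreated libraries. The passenger made up 0.335%, 0.152% and 0.291% of the miR-145a tags in ET1 libraries and 1.29%, 0.692% and 0.549% in untreated libraries. The nearest of these shares had 95% Wilson intervals of 0.253% to 0.444% in ET1 library 1 and 0.445% to 0.678% in untreated library 3, which cover counting error only. The log2 ratio was 8.64 ± 0.60 in ET1 and 6.97 ± 0.64 in untreated cells, a difference of 1.67 (SD, n = 3 each) at an exact permutation p of 0.1 (0.15 after adjustment).

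**Figure D3:**
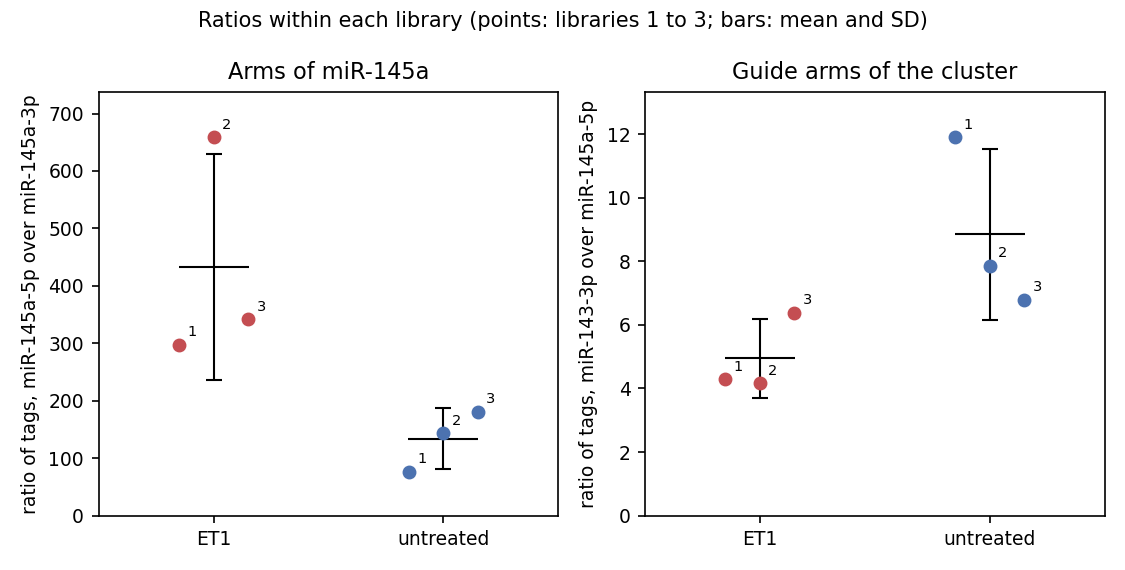
Ratio of tags within each library (y axes, linear from 0) for the arms of miR-145a, left, and for the guides miR-143-3p and miR-145a-5p, right, in 3 ET1 and 3 untreated libraries, with mean and SD. The arm ratio of miR-145a is higher in ET1 (298 to 658, against 76.6 to 181) and the ratio of the guides is lower (4.18 to 6.38, against 6.79 to 11.9).

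Arm ratios were fitted in limma over the 143 miRNAs whose 5p and 3p rows each had a mean of at least 10 tags per library. The change of miR-145a, 1.67 (SE 0.52), did not pass (limma adjusted p = 0.21), and 0.699% of the 143 passed. The groups did not overlap for 19.6% of them, so an arm ratio without overlap was common in these libraries. miR-145a ranked 10 by the size of the change, where the median size was 0.51. The arm that passed was that of miR-134, a miRNA of the imprinted Dlk1-Dio3 cluster, with a change of 2.27 towards the 5p arm (SE 0.42; limma adjusted p = 0.049). It was the only call, and no miRNA passed in the fits without ET1 library 1, 2 or 3, or without untreated library 1 or 2, while 5 passed without untreated library 3.

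**Figure D4:**
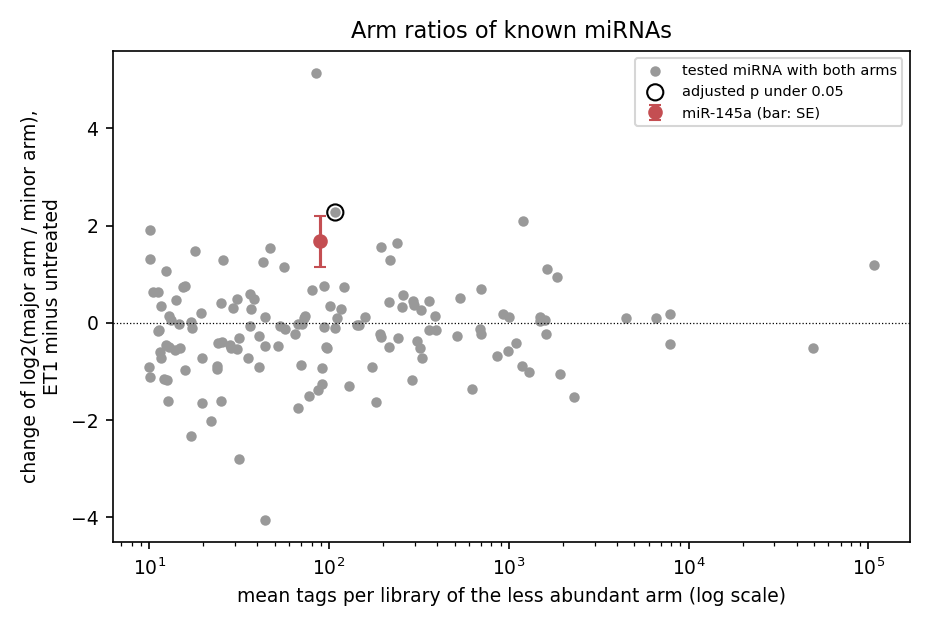
Change of the log2 ratio of the major over the minor arm, ET1 minus untreated (y axis), against the mean tags of the minor arm (x axis, log scale) for 143 miRNAs. miR-145a (red, with SE) lies at 1.67, inside the range of the others, and the circled point is miR-134, the call at 2.27.

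For miR-143 the arm ratio rests on 0 to 4 passenger tags. Over the 3 libraries of a group, the passenger was 6 of 187141 miR-143 tags in ET1, 0.00321% (95% Wilson interval 0.00147% to 0.0070%), and 5 of 457904 in untreated libraries, 0.00109% (0.000466% to 0.00256%). These intervals cover counting error only and hold no spread between libraries, so no comparison is drawn from them. The log2 ratio of miR-143-3p over miR-143-5p, with 0.5 tag added to each arm, was 15.08 ± 1.44 in ET1 and 16.47 ± 1.08 in untreated cells (SD, n = 3 each), at an exact permutation p of 0.3. The log2 ratio of the passengers, miR-143-5p over miR-145a-3p, differed by 2.24 with the same addition (exact permutation p = 0.1, adjusted 0.15), but its value in the libraries with 0 tags is set by the 0.5 tag added.

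The difference of 0.83 between the log2 fold changes of miR-143-3p and miR-145a-5p was set beside other hairpins that lie close together. Neighbouring hairpins within 10 kb on 1 strand gave 97 pairs. Each hairpin was represented by the more abundant of its tested arms that could be matched to a single RefSeq locus. For some hairpins this was the less abundant arm, as with miR-485-3p and miR-23b-5p. Some pairs thus set a guide beside a passenger, unlike the pair of miR-143-3p and miR-145a-5p, and the effect on the counts below was not examined. The median difference was 0.55, and 36 of the 97 pairs, this pair included, differed by at least 0.83. Of the 23 pairs with at least 100 CPM in both, 6 did, with a median of 0.48. This is a description, and the pairs share libraries and, in large clusters, hairpins.

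**Figure D5:**
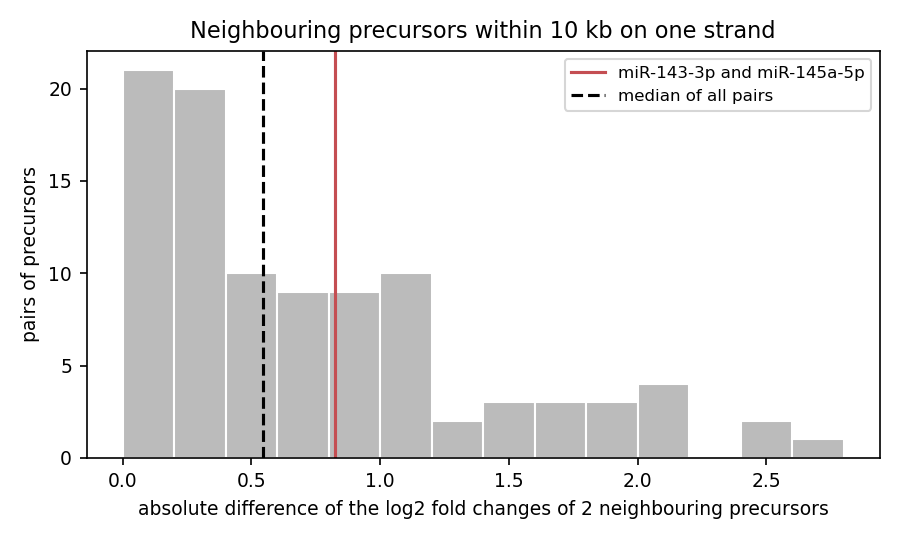
Number of neighbouring hairpin pairs (y axis) by the absolute difference of their log2 fold changes (x axis). The pair of miR-143-3p and miR-145a-5p, at 0.83 (red), lies above the median of 0.55 (dashed) and within the bulk of the 97 pairs.

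Across the 6 libraries the order of the arms was the same, miR-143-3p above miR-145a-5p, then miR-145a-3p, then miR-143-5p. As a measure of likeness over the libraries, log2(CPM + 0.5) profiles were centred and the root mean square difference was taken against the 183 known miRNAs with a mean of at least 100 CPM. miR-145a-5p was the 79th most alike to miR-143-3p, at a difference of 0.52 in log2 units. To the passenger miR-145a-3p, miR-143-3p was the 10th most alike (0.52) and miR-145a-5p the 90th (0.95). The 3 most alike to each tested arm were the following, with mature sequences from RefSeq (GRCm38.p6, 9 of 9 matched by name) shown so that the seeds, in capitals at bases 2 to 8, can be compared. The seed is the stretch that chooses the targets.

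miR-103-3p: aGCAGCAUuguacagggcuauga
miR-26a-5p: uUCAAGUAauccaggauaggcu
miR-22-3p: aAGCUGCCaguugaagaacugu
miR-181d-5p: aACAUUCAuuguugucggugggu
miR-181b-5p: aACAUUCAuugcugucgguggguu
miR-342-5p: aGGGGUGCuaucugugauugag
miR-10b-5p: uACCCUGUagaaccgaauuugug
miR-155-5p: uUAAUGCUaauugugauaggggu
miR-497a-5p: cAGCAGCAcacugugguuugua

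Most alike to miR-143-3p were miR-103-3p (root mean square difference 0.14), miR-26a-5p (0.15) and miR-22-3p (0.17), and none of them passed in edgeR (adjusted p = 0.22, 0.25 and 0.26). miR-22-3p lies at chr11:75463772-75463793 on the plus strand. Most alike to miR-145a-5p were miR-181d-5p (0.15), at chr8:84178759-84178781 on the minus strand, and miR-181b-5p (0.16), which have the same seed, and miR-342-5p (0.18), at chr12:108658638-108658659 on the plus strand. Most alike to miR-145a-3p were miR-10b-5p (0.21), miR-155-5p (0.29) and miR-497a-5p (0.42). They lie on the plus strand at chr2:74726074-74726096, chr16:84714143-84714165 and chr11:70234730-70234751. miR-103-3p, miR-26a-5p and miR-181b-5p each come from 2 loci in that table.

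Of these 9 miRNAs miR-10b-5p, whose hairpin lies among the Hoxd genes, passed the test. It had 523, 275 and 344 CPM in ET1 libraries, against 1126, 1211 and 807 CPM in untreated libraries, at a log2 fold change of −1.85 (SE 0.39; edgeR adjusted p = 0.026). It did not pass without ET1 library 2 (−1.72), ET1 library 3 (−1.78) or untreated library 2 (−1.69), at edgeR adjusted p of 0.066, 0.095 and 0.12, nor with the miRNA share as a covariate (−0.98; edgeR adjusted p = 0.75). miR-155-5p, an inflammatory miRNA, was at −1.41 and miR-497a-5p, of the miR-15 family, at −1.26 (edgeR adjusted p = 0.086 and 0.079). All 3 are listed here for the likeness of their profiles with miR-145a-3p, and that choice favours a low fold change.

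The table held other rows of the same hairpin families. The Rfam family row of mir-145 had 34.7 ± 11.6 CPM in ET1 and 26.6 ± 9.50 CPM in untreated cells (SD, n = 3 each). The row of mir-143 had 13.4 ± 3.16 CPM in ET1 and 13.4 ± 5.86 CPM in untreated cells. In both rows the groups overlapped. miR-145b, a separate miRNA with a related name, had 0 tags in 5 libraries and 3 in untreated library 3.

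The authors' deposited table gave log2 ratios of −0.59 for miR-143-3p, 0.23 for miR-145a-5p, −1.41 for miR-145a-3p and 0.96 for miR-143-5p, ET1 over untreated. The authors' deposited table thus marked miR-145a-5p as higher in ET1, with a q-value of 4.43e-130, while its own mean levels for that miRNA were 670 RPM in ET1 and 878 RPM in untreated libraries. The log2 ratio of the pooled counts minus the log2 ratio of the authors' deposited table was −0.6965 for each of the 4 arms. The authors' deposited table lists 1 pooled count per group, and how its p-values treat the spread of the 3 libraries was not given in the sources used here.

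Other muscle miRNAs were counted beside the pair. A list of 13 arms of other smooth and striated muscle miRNAs (the miR-1, miR-133, miR-206, miR-208, miR-490 and miR-499 families) had 9 rows, of which 4 passed the filter. Of these, 3 had negative log2 fold changes and 1 a positive one, with a median of −1.25 against 0.0058 over all tested miRNAs. None passed in edgeR, and 2 of the 4 were at an unadjusted p under 0.05, against 18.3% of all tested miRNAs. In DESeq2 1 passed, against 6.33% of all, and in limma-voom 1 passed, against 2.27% of all. miR-133a-3p, the most abundant and a miRNA of cardiac and skeletal muscle, had 94.4 ± 17.2 CPM in ET1 and 213 ± 36.3 CPM in untreated cells (SD, n = 3 each; log2 fold change −1.53, SE 0.39; edgeR adjusted p = 0.072). It is the one that passed in DESeq2 (adjusted p = 0.0076) and in limma-voom (adjusted p = 0.045), and it passed in edgeR with no filter (adjusted p = 0.036). The positive row was miR-206-3p, which averaged 89.4 CPM in ET1 and 53.5 CPM in untreated cells (log2 fold change 0.34, edgeR adjusted p = 0.82). Among rows under the filter, miR-499-5p had 5, 16 and 31 tags in ET1 libraries and 4, 4 and 10 in untreated libraries. miR-208b-3p had 2, 1 and 0 tags in untreated libraries and none in ET1 libraries. miR-490-5p had 3 tags in ET1 library 1 and 1 in untreated library 1. miR-208a-3p had no tag, and miR-490-3p had 2 tags in untreated library 1 and none elsewhere.

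Of 17 miRNAs linked to the growth and phenotype of smooth muscle, all were tested, 13 were negative and 4 positive, with a median of −0.59. None passed in the default edgeR fit or in limma-voom, and 1 passed in DESeq2, against 6.33% of all tested miRNAs. In edgeR 1 passed as lower in ET1 with no filter, 1 without ET1 library 1 and 1 without untreated library 3. In this order, these fits called 37 of 1368, 30 of 677 and 25 of 631 known miRNAs. At an unadjusted p under 0.05 in edgeR were 5 of the 17, against 18.3% of all tested miRNAs. miR-21a-5p, the most abundant and a miRNA that favours smooth muscle growth, had 14041 ± 1142 CPM in ET1 and 12666 ± 2728 CPM in untreated cells (SD, n = 3 each; log2 fold change −0.22; edgeR adjusted p = 0.74). Its log2 fold change was 0.15 with library totals alone. miR-221-3p and miR-222-3p, which favour proliferation of smooth muscle, were at 0.14 and 0.19 (edgeR adjusted p = 0.89 and 0.81).

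Some markers of other cells that a culture of testis cells can hold moved with the groups as well. The 2 arms of miR-126a, an endothelial miRNA, summed to 131 to 192 CPM in ET1 and 1057 to 1646 CPM in untreated cells. miR-126a-3p fell in ET1 (−3.61, SE 0.40; edgeR adjusted p = 0.00019), and was at −2.91 with the miRNA share as a covariate (edgeR adjusted p = 0.094). miR-126a-5p was at −2.01 with no overlap between the groups (SE 0.54; edgeR adjusted p = 0.079). By CPM 5.03% of all tested miRNAs were lower in ET1 without overlap, and 20.9% were higher in ET1 without overlap. In edgeR and limma-voom 1 of the 2 arms passed, against 1.79% and 2.27% of all tested miRNAs. In DESeq2 both did, against 6.33% of all. In edgeR with no filter both did, where 37 of 1368 known miRNAs passed. The 6 blood cell rows, led by miR-451a of red cells, summed to 90.8 to 367 CPM in ET1 and 265 to 911 CPM in untreated cells, with overlap. Of the 3 tested, miR-150-5p, of lymphocytes, fell (−3.45; edgeR adjusted p = 0.00036), and with the miRNA share as a covariate it was at −3.69 (edgeR adjusted p = 0.056). The other blood cell rows did not go the same way. miR-451a was at −0.56 and miR-223-3p, of myeloid cells, at 0.29 (edgeR adjusted p = 0.87 and 0.85). The 3 rows under the filter averaged higher in ET1, with 2.34 CPM in ET1 and 0.513 CPM in untreated cells for miR-142a-3p, 1.01 CPM in ET1 and 0.353 CPM in untreated cells for miR-142a-5p, and 1 to 10 tags in ET1 libraries and none in untreated libraries for miR-144-3p. The median of the 3 tested rows was −0.56, and that of all 6 with no filter was 0.64. The 4 rows of mesenchymal miRNAs, led by miR-214-3p, summed to 9320 to 13597 CPM in ET1 and 4849 to 6993 CPM in untreated cells. A level higher in ET1 without overlap was common, at 20.9% of all tested miRNAs by CPM. Most of the sum was miR-214-3p, which averaged 9131 CPM in ET1 and 3503 CPM in untreated cells (log2 fold change 1.03; edgeR adjusted p = 0.11). Of the 4 rows, 2 were positive and 2 negative, with a median of 0.27. miR-199a-5p was at 0.67, the row shared by miR-199a-3p and miR-199b-3p at −0.13 and miR-152-3p at −0.43 (edgeR adjusted p = 0.37, 0.88 and 0.68).

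The remaining marker sums overlapped between the groups. The 6 epithelial rows summed to 89.1 to 142 CPM in ET1 and 106 to 280.3 CPM in untreated cells, led by miR-200b-3p. The 2 arms of miR-202, of Sertoli and other gonadal cells, summed to 714 to 2058 CPM in ET1 and 876 to 1214 CPM in untreated cells. The 8 germ cell rows, led by miR-871-3p, summed to 1009 to 5605 CPM in ET1 and 496 to 1191 CPM in untreated cells. Most of the highest sum was miR-871-3p, at 5111 CPM in ET1 library 1. All 5 tested epithelial rows were negative, with a median log2 fold change of −0.79. Both gonadal rows were positive, with a median of 0.12. Of the 7 tested germ cell rows, 4 were positive and 3 negative, with a median of 0.96. None of the mesenchymal, epithelial, gonadal or germ cell rows passed in limma-voom or in the default edgeR fit with TMM scaling. In edgeR with library sizes alone, 1 mesenchymal and 2 germ cell rows passed as higher in ET1, where 41 of 616 known miRNAs passed. With no filter 2 germ cell rows passed as higher, where 37 of 1368 did. Without ET1 library 1 there was 1 germ cell row (of 30 calls in 677), and without untreated library 3 there was 1 mesenchymal row (of 25 calls in 631). At an unadjusted p under 0.05 in edgeR were 1 of 4 mesenchymal, 1 of 5 epithelial, 0 of 2 gonadal and 2 of 7 germ cell rows tested, against 18.3% of all tested miRNAs. In DESeq2 2 of the 7 germ cell rows passed, against 6.33% of all, and none of the other rows did. No marker row was at 0 in all libraries. The part of these cell types, and of the lower miRNA and higher rRNA share, in the lower miR-143-3p and miR-145a-3p of the ET1 libraries was not tested. In bulk RNA, fewer cells of a type and less RNA per cell cannot be told apart.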

How the data were processed

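Total RNA came from a TRNzol extraction and was sequenced by BGI's small RNA workflow, per the labels' protocols. Bowtie2 and mm10 are named per the submitters' processing notes; the handling of tags that match several loci was not given in the sources used here. Per the file headers, the authors deposited raw tag counts per row in 6 libraries, beside RPM values headed TPM, which were not tested. The authors' deposited comparison table holds pooled counts, mean RPM, log2 ratios, p-values and q-values.

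Known miRNAs were rows named mmu-mi or mmu-let. Differences between groups were fitted in R 4.3.3 by edgeR 4.0.16, with TMM factors, the default filter, a robust quasi-likelihood fit on the group and a Benjamini-Hochberg threshold of 0.05; DESeq2 1.42.0 and limma-voom were alternatives. Arm ratios, with 0.5 tag added, were tested with limma 3.58.1. Ratios and levels of the 4 arms were compared by exact permutation, two-sided, over 20 splits. No 2 libraries of a group agreed within counting error (chi-square over its degrees of freedom 336 to 1212). The 4 rows of exon, intron, intergenic and repeat tags, 44.3% to 61.4% of a library, entered no fit.

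The arms, lists and tests were chosen with earlier results of these data known. Beside the 4 arms, the text names the 3 miRNAs most alike in profile to each tested arm, list members that passed or were most abundant, and the arm ratio that passed. Other list members named (miR-208a-3p, miR-490-3p, miR-221-3p, miR-222-3p, and blood, endothelial and mesenchymal rows that did not pass) were chosen after their values were seen. Also named outside that rule are miR-206-3p, miR-499-5p, miR-208b-3p and miR-490-5p. The rule to name miRNAs that share a seed with an arm was not applied. Alternatives changed the scaling, the tool, the filter, the rows fitted and the covariates, and left out each library.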

Additional observations from a re-analysis of the deposited data

How the results depend on the processing

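miR-143-3p and miR-145a-3p stayed negative in all 15 alternatives, and the arm ratio of miR-145a stayed positive in all 10 that gave a value. A minimum of 100 tags per arm gave none. With 1 library left out, miR-143-3p ran from −1.06 to −0.83, miR-145a-3p from −2.12 to −1.50, miR-145a-5p from −0.22 to 0.035 (positive without untreated library 2) and the arm ratio from 1.32 to 1.93. miR-145a-5p was also positive with library sizes alone (0.26) and with the miRNA share as a covariate (0.096), and its difference in levels, 459.6 CPM by known miRNA tags, was −206.9 when scaled to all tags and −187.9 CPM after TMM scaling. miR-145a-3p passed in the DESeq2 test (−1.77), with no filter (−1.83) and with the replicate block (−1.77). Known miRNAs called, 11 in the report, were 41 with library sizes alone, 39 in DESeq2, 37 with no filter, 21 with the replicate block, 2 to 30 with 1 library left out, and 0 with all rows fitted together or with the miRNA share as a covariate (116 and 39 at an unadjusted p under 0.05). Arm ratios called, 1 in the report, were 0 with a minimum of 3 tags, with no variance trend and with the replicate block, and 0 to 5 with 1 library left out. The median difference of hairpin pairs was 0.57 within 50 kb. The cause of these shifts was not tested.

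The labels give same-numbered libraries only a number in common, and whether they were paired is not stated. Their deviations from the group mean correlated at 0.28, 0.063 and 0.26. Libraries with unlike numbers correlated lower, at −0.25 to 0.0099. Deviations from the mean of 3 libraries cancel within a group, so higher values for same-numbered libraries push the others down. These correlations therefore cannot decide whether the libraries were paired. Beside miR-145a-3p the block changed the call of no arm. With the block miR-133a-3p passed (−1.55; edgeR adjusted p = 0.045). Ratios with miR-143-5p could not be computed without an added tag. With 3 libraries against 3, exact permutation cannot give a p below 0.1, and the depth does not resolve miR-143-5p.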
